A study of Mus musculus with 13 samples.

Results

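The metzincin metalloproteinases and their inhibitors were followed in RNA from the brain vasculature of mice challenged with lipopolysaccharide (LPS) and treated with an inhibitor of endocannabinoid breakdown. The group was a list of named genes of the Mmp, Adamts, Adam and Timp families with *Reck*, not the whole of those families, and it was drawn up with earlier results of these data known. It held 43 of the 47643 genes counted, namely 38 proteases and 5 inhibitors, and 41 of the 43 passed the filter on low counts and were among the 17285 genes tested. The 13 animals were male CD1 mice aged 8 to 10 weeks. LPS mice received LPS of Salmonella enterica typhimurium at 3 mg/kg intraperitoneally at 0, 6 and 24 h, and brains were taken at 28 h, 4 h after the last dose. The 4 sham-vehicle mice received phosphate-buffered saline in place of LPS, together with vehicle. The 5 LPS-vehicle mice received LPS and the vehicle of DMSO, Cremophor and saline. The 4 LPS-CPD-4645 mice received LPS and, 30 min after each dose, 10 mg/kg subcutaneous CPD-4645, a covalent inhibitor of monoacylglycerol lipase. That delay is the one in the labels, and the study's own text gives it in more than 1 way. No group received CPD-4645 without LPS, so its differences from vehicle are between LPS-treated mice. Mice described below as with CPD-4645 also had LPS, so their differences from sham-vehicle mice join both treatments.

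Matrix metalloproteinases (MMPs) are zinc enzymes that are secreted or tethered to the cell membrane and cut collagens, laminins and other proteins of the basement membrane. The ADAMTS enzymes are secreted, and several of them cut the chondroitin sulphate proteoglycans versican, brevican and aggrecan, while ADAMs are membrane proteins that release the outer part of other membrane proteins. Tissue inhibitors of metalloproteinases (TIMPs) block the active site of these enzymes, and RECK is a membrane-anchored inhibitor. In brain vessels the MMPs are known for cutting basement membrane and tight junction proteins during inflammation.

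The material was a brain fraction enriched for vasculature rather than sorted cells, so that fewer cells of a type and less RNA per cell cannot be told apart. Summed library counts ran from 7813559 to 55133373, with LPS-vehicle mouse 3 lowest and mouse 1 of LPS-CPD-4645 second lowest at 12548404. Of the endothelial markers all 10 were detected, at a summed 438.6 to 703 counts per 1000000 of the scaled library total (CPM) in sham-vehicle mice. Neuronal markers were detected too, all 8 of them, and per kilobase of exon their sum in sham-vehicle mice was 3612 to 4171 CPM, against 174 to 283 for the endothelial markers. The neuronal sum was the larger in every one of these libraries labelled as neurovasculature. By RT-qPCR, a different measure from these sums, the study reported enriched *Gfap*, *Pdgfrb* and *Pecam1* and low *Syp* and *Aif1* in its preparation.

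Promoters of 5 members are shown because their transcripts had the largest fold changes after LPS. *Mmp3*, *Timp1* and *Adamts1* were high in both LPS groups, and *Mmp8* and *Adamts9* were lower with CPD-4645 than with vehicle. Each run is the 250 bases before the start of the gene as RefSeq gives it on GRCm38.p6, read 5′ to 3′ along the gene, with capitals marking a match to a searched motif.
Mmp3, chr9:7445572-7445821, forward strand: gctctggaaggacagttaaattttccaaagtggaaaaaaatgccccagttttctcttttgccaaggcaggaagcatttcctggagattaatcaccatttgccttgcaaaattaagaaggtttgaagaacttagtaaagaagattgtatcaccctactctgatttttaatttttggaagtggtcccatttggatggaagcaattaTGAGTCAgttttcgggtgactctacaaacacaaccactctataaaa
Mmp8, chr9:7558179-7558428, forward strand: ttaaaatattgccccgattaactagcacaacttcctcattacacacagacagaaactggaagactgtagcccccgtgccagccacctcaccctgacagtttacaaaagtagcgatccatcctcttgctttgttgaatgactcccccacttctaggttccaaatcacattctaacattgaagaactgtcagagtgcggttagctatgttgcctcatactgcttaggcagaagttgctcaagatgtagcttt
Timp1, chrX:20869916-20870165, forward strand: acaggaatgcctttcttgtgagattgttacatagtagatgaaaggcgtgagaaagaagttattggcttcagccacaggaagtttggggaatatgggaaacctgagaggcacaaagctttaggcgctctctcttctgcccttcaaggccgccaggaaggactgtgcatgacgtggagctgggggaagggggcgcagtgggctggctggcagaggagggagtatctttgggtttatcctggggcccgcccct
Adamts1, chr16:85803114-85803363, reverse strand: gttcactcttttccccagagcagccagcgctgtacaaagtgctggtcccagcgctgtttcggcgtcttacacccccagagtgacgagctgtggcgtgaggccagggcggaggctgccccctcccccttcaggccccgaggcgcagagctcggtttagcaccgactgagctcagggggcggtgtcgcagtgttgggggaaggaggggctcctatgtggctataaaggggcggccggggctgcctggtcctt
Adamts9, chr6:92943535-92943784, reverse strand: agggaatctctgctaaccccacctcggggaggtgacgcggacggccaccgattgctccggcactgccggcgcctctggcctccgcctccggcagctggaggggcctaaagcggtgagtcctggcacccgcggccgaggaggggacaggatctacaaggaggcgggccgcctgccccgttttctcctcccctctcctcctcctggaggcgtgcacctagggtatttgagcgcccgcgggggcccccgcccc
The letters searched on both strands were AP-1 as TGANTCA, NF-kB as GGNNTTNCC, STAT as TTCNNNGAA, C/EBP as TTNCGNAA and the glucocorticoid receptor as ACANNNTGT. The *Mmp3* window held the AP-1 letters, beginning 46 bases before the start, and the other 4 windows held none of the motifs. Among all 32851 promoter windows 6.75% held the AP-1 letters, 13.5% the NF-kB, 7.02% the STAT, 2.04% the C/EBP and 5.83% the glucocorticoid receptor letters. Windows were found for 27 members. In those, the AP-1 letters were also found in 1 of the *Adam19* windows, the NF-kB letters in that same *Adam19* window and in that of *Timp2*, and the remaining motifs in none.

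LPS raised 17 of the 41 members tested and lowered 2 at an adjusted p of at most 0.05, where 11.1% of all genes tested were higher and 8.86% lower. At a change of at least 2-fold the counts were 10 higher and 0 lower, against 4.68% and 0.995% of all genes. The median log2 fold change of the members was 0.33, and that of all genes was -0.00065. By role, 4 of 7 secreted MMPs rose, as did 6 of 17 ADAMTS proteases, 3 of 7 ADAMs and 3 of 4 TIMPs. Membrane-type MMPs went both ways, with 1 of 5 higher and 2 lower. The largest rises were those of *Mmp3*, *Mmp8*, *Timp1*, *Adamts9* and *Adamts1*.

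With CPD-4645, compared with LPS and vehicle, 12 members were lower and 2 higher, where 16.4% and 14.1% of all genes tested were lower and higher. Of these, 4 were lower by at least 2-fold and none was higher, against 4.19% and 1.7% of all genes. Beside the 0 members higher by at least 2-fold stand the 2 called higher without the fold threshold, *Adamts2* and *Adamts20*. The median log2 difference was -0.22 for the members and -0.02 for all genes. Relative to sham-vehicle, LPS-CPD-4645 mice had 14 members higher and 7 lower, where 19.5% and 19.3% of all genes were called, and 8 higher and 3 lower by at least 2-fold, where 6.11% and 4.98% were. These 3 comparisons share their mice, since each group enters 2 of them, so their values are given side by side and not as independent results.

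**Figure D1:**
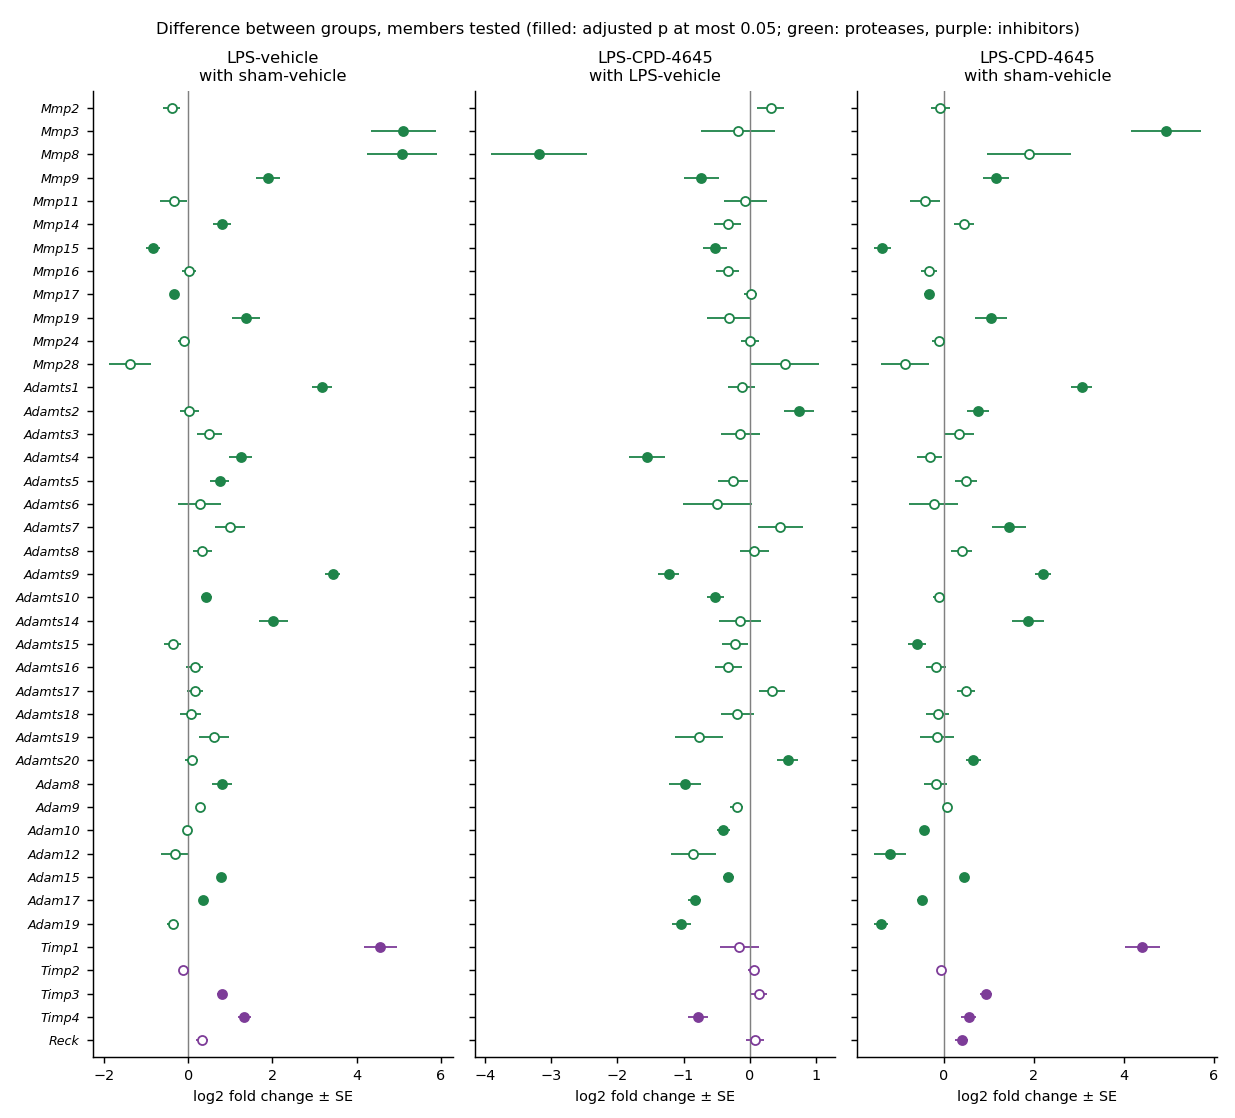
Log2 fold change (x axis, with its standard error) of the 41 members tested (y axis) in the 3 comparisons, with filled points at an adjusted p of at most 0.05, proteases in green and inhibitors in purple. The largest values after LPS are those of Mmp3, 5.11, Mmp8, 5.07, and Timp1, 4.57, and of these only Mmp8 has a filled point in the comparison of LPS-CPD-4645 with LPS-vehicle.

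*Mmp3*, stromelysin-1, is a secreted protease that cuts a wide range of matrix proteins and activates other MMPs. It lies at chr9:7445822-7455975 on the forward strand (GRCm38, GENCODE M21). Sham-vehicle mice 1 to 4 had 0.827, 0.161, 0.159 and 0 CPM of *Mmp3*, from 29, 4, 4 and 0 reads, and a count of 0 in the last library allows up to 0.148 CPM. LPS-vehicle mice 1 to 5 had 16.6, 8.35, 25.1, 3.39 and 6.43 CPM. LPS-CPD-4645 mice 1 to 4 had 8.38, 22.5, 5.83 and 3.92 CPM. Every LPS mouse was above every sham mouse, and both LPS groups spanned a wide and overlapping range. The log2 fold change after LPS was 5.11 (SE 0.77, adjusted p = 9.86e-05 by the edgeR quasi-likelihood test), although with limma-voom the adjusted p was 0.0518 at a log2 fold change of 5.38. Without sham-vehicle mouse 1 *Mmp3* rose by 6.62. Between LPS-CPD-4645 and LPS-vehicle the log2 difference was -0.18 (SE 0.56, adjusted p = 0.834), a standard error that leaves room for changes of either sign. Against sham-vehicle, LPS-CPD-4645 mice were higher by 4.94 on the log2 scale (SE 0.78, adjusted p = 8.22e-05), and the value of *Mmp3* was 6.44 without sham-vehicle mouse 1 and 4.17 without LPS-CPD-4645 mouse 2.

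*Mmp8*, collagenase-2, is a protease stored in neutrophil granules that cuts fibrillar collagen. Its gene is at chr9:7558456-7568485, 102.5 kb downstream of *Mmp3* on the same strand. Sham-vehicle mice had 0.399, 0, 0.0398 and 0 CPM of *Mmp8*, from 14, 0, 1 and 0 reads. In LPS-vehicle mice the level was 2.37, 8.84, 3.91, 3.15 and 4.44 CPM. In LPS-CPD-4645 mice it was 1.19, 0.594, 0 and 0.431 CPM. The LPS-vehicle group stood above both others without overlap, while LPS-CPD-4645 and sham-vehicle overlapped. *Mmp8* rose by 5.07 after LPS (log2, SE 0.83, adjusted p = 0.000243), and it was lower with CPD-4645 than with vehicle, at -3.18 (SE 0.73, adjusted p = 0.00317). LPS-CPD-4645 mice did not differ from sham-vehicle mice past the threshold (1.89, SE 0.93, adjusted p = 0.118). That last call rested on single libraries, since the value was 4.75 without sham-vehicle mouse 1 (adjusted p = 0.0104) and 2.36 without LPS-CPD-4645 mouse 3 (adjusted p = 0.0325), and without sham-vehicle mouse 1 the rise after LPS reached 7.93. With limma-voom *Mmp8* was 6.11 after LPS and -4.23 between the LPS groups.

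*Mmp9*, gelatinase B, cuts basement membrane collagen and is made by neutrophils and by activated vascular cells. The sham-vehicle values of *Mmp9* were 2.11, 1.37, 2.11 and 1.78 CPM. The LPS-vehicle values were 6.45, 12.1, 4.16, 4.95 and 6.11 CPM. With CPD-4645 they were 3.40, 4.02, 4.55 and 4.43 CPM. LPS-vehicle mouse 2 was highest by a wide margin, and the 4 treated mice lay within or just below the range of the other LPS-vehicle mice and above all sham mice. *Mmp9* rose by 1.89 after LPS (log2, SE 0.28, adjusted p = 9.16e-05) and remained 1.16 above sham-vehicle with CPD-4645 (SE 0.29, adjusted p = 0.00447). The fall between LPS-vehicle and LPS-CPD-4645, -0.73 (SE 0.27, adjusted p = 0.0448), was lost in 12 of 21 alternative settings, and without LPS-vehicle mouse 2 it was -0.41 (adjusted p = 0.176). The other 9 libraries whose absence ended the call were sham-vehicle 1, 3 and 4, LPS-vehicle 1 and 5 and all 4 of LPS-CPD-4645, with values from -0.78 to -0.65.

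*Mmp19*, a secreted MMP that cuts basement membrane proteins, was a low transcript that rose. Its sham-vehicle level was 1.65, 0.563, 1.55 and 1.14 CPM. After LPS and vehicle it was 4.05, 3.46, 3.02, 2.35 and 3.07 CPM. After LPS and CPD-4645 it was 4.19, 2.06, 2.33 and 1.84 CPM. Both LPS groups were above the sham group without overlap, and they overlapped each other. The rise after LPS was 1.37 on the log2 scale (SE 0.33, adjusted p = 0.0067), the difference with CPD-4645 was -0.32 (SE 0.32, adjusted p = 0.472) and the value against sham-vehicle was 1.05 (SE 0.35, adjusted p = 0.0237). The last call of *Mmp19* was lost with limma-voom (0.95, adjusted p = 0.0553) and without sham-vehicle mouse 2 (0.82) or 4 (1.02) or LPS-CPD-4645 mouse 1 (0.76). That call of *Mmp19* was also lost without the pair of libraries of lowest total count (0.75, adjusted p = 0.101). In the annotation 1001 of its 3453 exon bases overlap exons of *Gm47093* or *Tmem198b* on the other strand. The other secreted MMPs were *Mmp2*, *Mmp11* and *Mmp28*, and none passed the edgeR test. *Mmp28* came nearest, at -1.39 after LPS (SE 0.50, adjusted p = 0.0556), and its 5 LPS-vehicle values, 0 to 0.93 CPM, lay below its 4 sham values, 1.25 to 1.71 CPM.

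Neutrophil markers were set beside *Mmp8* and *Mmp9*. Of the 12 markers listed 9 were tested, 8 of the 9 rose after LPS, where 11.1% of all genes tested did, and 8 of the 9 were lower with CPD-4645 than with vehicle, where 16.4% were. The tested marker not called after LPS was *Csf3r* (0.46, SE 0.34, adjusted p = 0.393). *Lcn2*, which other brain cells also make and whose product binds MMP9, was the marker that stayed high, at 23.5 CPM ± 23.1 in sham-vehicle, 699.8 ± 190.5 with LPS and vehicle, and 778 ± 125 with LPS and CPD-4645 (SD, n = 4, 5 and 4). With *Lcn2* the summed level of the list was 9.87 to 66.8 CPM in sham-vehicle, 522 to 1182 with LPS and vehicle, and 684 to 927 with LPS and CPD-4645. Without it, a choice made after the values were seen, the sum was 3.65 to 10.8, 68.7 to 281 and 7.94 to 28.4 CPM. The mouse with the highest sum of the other 11 markers, LPS-vehicle 2, was also the one with the highest *Mmp8* and the highest *Mmp9*. The other LPS-vehicle mice did not keep that order, since mouse 5 had the lowest sum, 68.7, and the second highest *Mmp8*, and mouse 3 had the second highest sum, 110.8, and the lowest *Mmp9*. None of the markers was at 0 in all libraries, and the brains had not been perfused. How much of the change in *Mmp8* and *Mmp9* came with neutrophils was not tested.

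**Figure D2:**
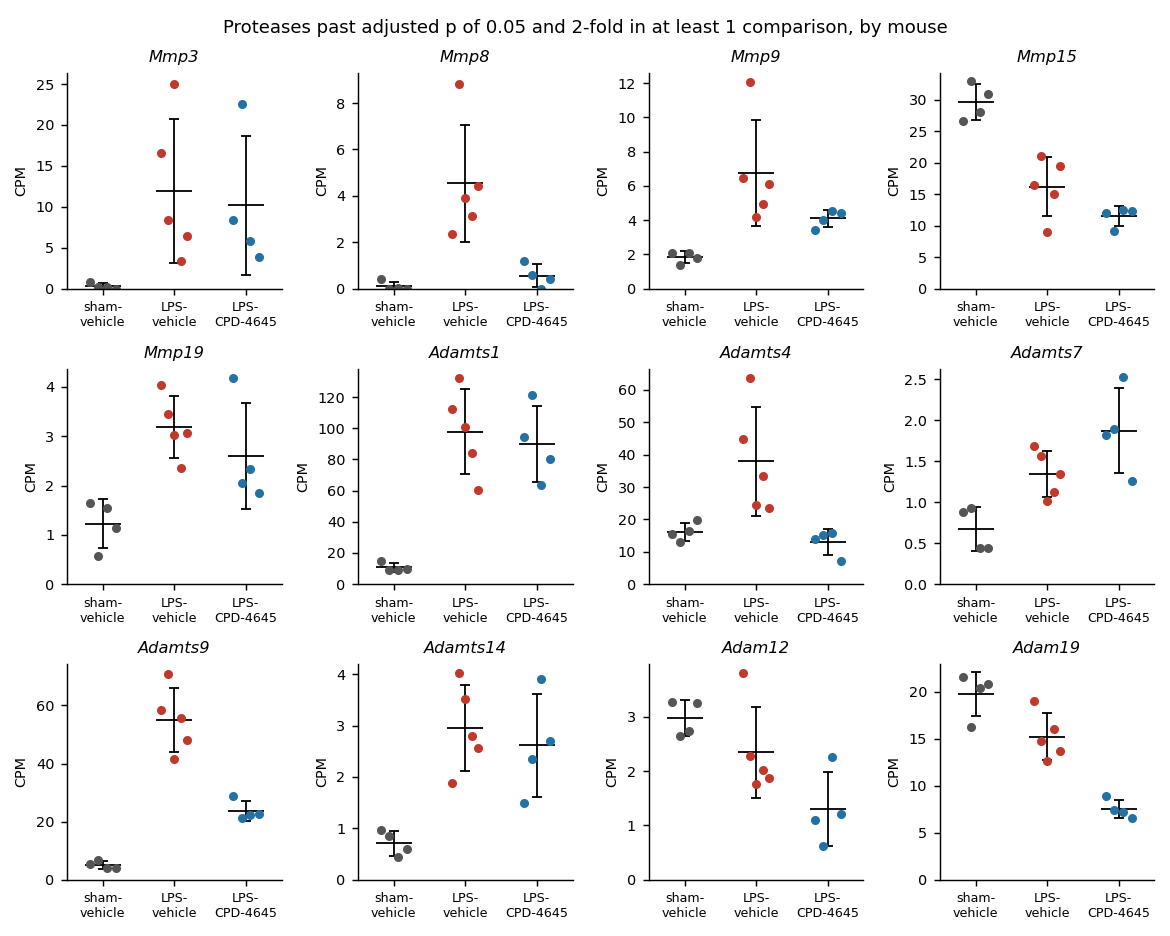
Level (y axis, CPM, from 0) of the 12 proteases past an adjusted p of 0.05 and 2-fold in at least 1 comparison, in each of the 13 mice (points) with the group mean and SD (bar and whiskers), by group (x axis). Mmp3 and Adamts1 are high in both LPS groups, Mmp8 and Adamts4 are high in LPS-vehicle mice alone, and Adam19 is lowest in LPS-CPD-4645 mice, at 6.59 to 8.85 CPM.

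Of the membrane-type MMPs, *Mmp15* fell in steps across the groups. MT2-MMP, its product, cuts matrix proteins at the cell surface. *Mmp15* stood at 26.7, 33.0, 28.1 and 30.9 CPM in sham-vehicle mice. It stood at 16.4, 21.1, 8.94, 15.1 and 19.5 CPM in LPS-vehicle mice. In LPS-CPD-4645 mice it stood at 12.01, 9.16, 12.5 and 12.3 CPM. All sham values exceeded all LPS values, and LPS-vehicle mouse 3 alone in its group lay below all LPS-CPD-4645 mice. *Mmp15* fell by 0.85 on the log2 scale after LPS (SE 0.17, adjusted p = 0.00195) and by 1.37 with LPS and CPD-4645 against sham-vehicle (SE 0.19, adjusted p = 2.28e-05). The further step with CPD-4645, -0.52 (SE 0.18, adjusted p = 0.0356), was lost in 8 of 21 alternatives, among them leaving out mouse 1, 2 or 4 of LPS-CPD-4645 or mouse 1, 2 or 5 of LPS-vehicle (-0.55 to -0.41). *Mmp17*, a glycolipid-anchored MMP, was lower after LPS (-0.35, SE 0.09, adjusted p = 0.0127) and with CPD-4645 against sham-vehicle (-0.34, SE 0.10, adjusted p = 0.012). *Mmp14*, the membrane protease that activates pro-MMP2, rose after LPS (0.79, SE 0.21, adjusted p = 0.0131) and passed no threshold in the other comparisons. *Mmp16* and *Mmp24* passed none, and *Mmp25* had 0 to 50 reads per library, below the filter on low counts, and was not tested.

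Markers of neurons, oligodendrocytes and mural cells were set beside the falls of *Mmp15* and *Mmp17*. After LPS 2 of 8 neuronal markers, 4 of 8 oligodendrocyte markers and 4 of 10 pericyte and smooth muscle markers fell, and 0, 1 and 1 rose, beside 8.86% of all genes lower and 11.1% higher. The neuronal sum was 9662 to 11140 CPM in sham-vehicle mice, 8041 to 8926 with LPS and vehicle, and 8556 to 11050 with LPS and CPD-4645. Oligodendrocyte markers summed to 4512 to 6445, 3213 to 4242 and 3727 to 4806 CPM in the same order, and pericyte and smooth muscle markers to 262 to 393, 193 to 320.4 and 231 to 302 CPM. LPS-vehicle mice lay below sham mice without overlap in the neuronal and oligodendrocyte sums, whereas the treated mice overlapped the sham mice in all 3 sums. With CPD-4645 against vehicle 2 neuronal markers were higher and 0 lower, 2 oligodendrocyte markers were higher and 2 lower, and 0 of the pericyte and smooth muscle markers were called, beside 14.1% of all genes higher and 16.4% lower. None of these markers was at 0 in all libraries, and the part of these cells in the falls was not tested.

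*Adamts1* and *Adamts9* were the ADAMTS genes with the largest rises, and 1 of them, *Adamts9*, was lower with CPD-4645 than with vehicle. Both products cut versican, and ADAMTS1 also binds vascular endothelial growth factor. *Adamts1*, at chr16:85793827-85803113 on the reverse strand, had 15.1, 8.88, 9.16 and 9.62 CPM in sham-vehicle mice. LPS-vehicle mice had 112, 132, 101, 83.9 and 60.1 CPM of it. LPS-CPD-4645 mice had 94.4, 121, 63.8 and 80.3 CPM. Every LPS mouse was above every sham mouse, and the LPS groups covered the same range. *Adamts1* rose by 3.18 after LPS (log2, SE 0.24, adjusted p = 4.61e-08) and was 3.06 above sham-vehicle with CPD-4645 (SE 0.24, adjusted p = 5.77e-08), with a difference between the LPS groups of -0.12 (SE 0.21, adjusted p = 0.688).

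*Adamts9* (chr6:92772699-92943492, reverse strand) had 5.53, 6.63, 4.06 and 4.05 CPM in sham-vehicle mice. Its level with LPS and vehicle was 58.3, 70.8, 41.7, 55.7 and 48.1 CPM. Its level with LPS and CPD-4645 was 28.9, 21.2, 22.2 and 22.5 CPM. The 3 groups did not overlap, with the treated mice between the others. The log2 fold changes were 3.44 after LPS (SE 0.18, adjusted p = 1.97e-09), -1.23 with CPD-4645 against vehicle (SE 0.16, adjusted p = 3.54e-05) and 2.21 against sham-vehicle (SE 0.18, adjusted p = 8.29e-08). Exons of other genes on the opposite strand cover 590 of its 8016 exon bases. All 21 alternatives kept the 3 calls of *Adamts9*.

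*Adamts4*, an aggrecanase that cuts aggrecan, brevican and versican, rose after LPS and was lower with CPD-4645. Sham-vehicle mice had 15.3, 13.1, 16.5 and 19.8 CPM of *Adamts4*. The LPS-vehicle mice had 44.9, 63.7, 24.6, 33.3 and 23.4 CPM. The LPS-CPD-4645 mice had 14.1, 15.2, 15.8 and 7.10 CPM. All LPS-vehicle values exceeded all values of the other groups, which overlapped. The rise after LPS was 1.25 (log2, SE 0.27, adjusted p = 0.00276), the difference with CPD-4645 was -1.56 (SE 0.27, adjusted p = 0.000441) and that between LPS-CPD-4645 and sham-vehicle was -0.31 (SE 0.28, adjusted p = 0.405). Each of those calls was the same in all 21 alternatives.

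*Adamts14*, a procollagen N-propeptidase, and *Adamts7*, which cuts cartilage oligomeric matrix protein, were low transcripts that were higher in LPS mice. *Adamts14* had 0.969, 0.844, 0.438 and 0.592 CPM in sham-vehicle mice. In LPS-vehicle mice it had 1.89, 4.02, 3.53, 2.79 and 2.56 CPM. In LPS-CPD-4645 mice it had 1.501, 2.34, 3.91 and 2.71 CPM. Neither LPS group overlapped the sham group. Its log2 fold changes were 2.02 after LPS (SE 0.35, adjusted p = 0.000382), -0.15 with CPD-4645 (SE 0.32, adjusted p = 0.748) and 1.87 against sham-vehicle (SE 0.36, adjusted p = 0.000509). *Adamts7* had 0.884, 0.925, 0.438 and 0.444 CPM in sham-vehicle mice. With LPS and vehicle it had 1.68, 1.56, 1.01, 1.12 and 1.34 CPM. With LPS and CPD-4645 it had 1.82, 1.89, 2.52 and 1.26 CPM. Its 9 LPS values were all above its 4 sham values, and the LPS groups overlapped. The difference from sham-vehicle passed the test with CPD-4645 (1.46, SE 0.37, adjusted p = 0.00504) and not with LPS alone (0.998, SE 0.36, adjusted p = 0.0584), and the 2 LPS groups did not differ past the threshold (0.46, SE 0.34, adjusted p = 0.327). The value after LPS did pass with DESeq2 (adjusted p = 0.0434) and without sham-vehicle mouse 2 (1.17, adjusted p = 0.0438).

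Among the other ADAMTS genes the calls were smaller. *Adamts5*, an aggrecanase whose gene lies 53.1 kb from *Adamts1*, rose after LPS (0.74, SE 0.23, adjusted p = 0.0319), a call that ended without sham-vehicle mouse 1 (0.75) or 2 (0.54) or LPS-vehicle mouse 1 (0.70), 2 (0.74) or 3 (0.61). The call of *Adamts5* also ended without the pair of libraries of lowest total count (0.61, adjusted p = 0.0812). *Adamts10*, which binds fibrillin microfibrils, rose after LPS (0.42, SE 0.13, adjusted p = 0.0259) and was lower with CPD-4645 than with vehicle (-0.52, SE 0.13, adjusted p = 0.00551). Its rise ended without sham-vehicle mouse 1 (0.40), 3 (0.42) or 4 (0.36) or LPS-vehicle mouse 1 (0.40) or 4 (0.37), and its fall held in all 21 alternatives. *Adamts2*, a procollagen N-propeptidase like *Adamts14*, and *Adamts20*, a versican-cutting enzyme, were the members higher with CPD-4645 than with vehicle. *Adamts2* had 3.34 to 6.76 CPM with LPS and vehicle, and 6.77 to 9.37 CPM with LPS and CPD-4645, a log2 difference of 0.74 (SE 0.23, adjusted p = 0.0208). That call ended without mouse 2 (0.66) or 4 (0.70) of LPS-CPD-4645 or mouse 4 of LPS-vehicle (0.62), and its call against sham-vehicle (0.76, SE 0.24, adjusted p = 0.0193) ended without sham-vehicle mouse 4 (0.63) or LPS-CPD-4645 mouse 2 (0.69). *Adamts20* had 11.5 to 19.3 CPM with LPS and vehicle, and 21.7 to 26.7 CPM with LPS and CPD-4645, a difference of 0.57 (SE 0.16, adjusted p = 0.0111), and it was 0.65 above sham-vehicle (SE 0.17, adjusted p = 0.00503), both held in all 21 alternatives. After LPS alone neither differed past the threshold (*Adamts2* 0.02, *Adamts20* 0.08). *Adamts15* was lower with LPS and CPD-4645 than in sham-vehicle mice (-0.60, SE 0.21, adjusted p = 0.0279), a call that ended without sham-vehicle mouse 1, 3 or 4 or without LPS-CPD-4645 mouse 2 or 4 (-0.58 to -0.47).

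No call was made in any comparison for *Adamts3*, *Adamts6*, *Adamts8*, *Adamts16*, *Adamts17*, *Adamts18* or *Adamts19*. *Adamts12* had 9 reads in sham-vehicle mouse 1 and 0 in the other libraries, where the count of 0 allows at most 0.0538 to 0.378 CPM, and it was not tested.

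Of the 7 ADAM proteases 5 were lower with CPD-4645 than with vehicle and 0 higher, where 16.4% of all genes tested were lower, and the class itself was not tested. Both genes outside that count, *Adam9* and *Adam12*, had values below 0. *Adam17* encodes the enzyme that releases tumour necrosis factor from the cell surface. Its sham-vehicle level was 22.2, 23.2, 23.7 and 22.9 CPM. Its LPS-vehicle level was 33.9, 27.8, 30.5, 29.0 and 25.2 CPM. Its LPS-CPD-4645 level was 16.3, 16.9, 16.4 and 16.2 CPM. The 3 groups did not overlap, and the treated mice were below the sham mice rather than between. *Adam17* rose by 0.35 after LPS (log2, SE 0.10, adjusted p = 0.0181), was lower with CPD-4645 than with vehicle, at -0.83 (SE 0.10, adjusted p = 1.93e-05), and was below sham-vehicle, at -0.48 (SE 0.10, adjusted p = 0.0014). The rise after LPS ended without sham-vehicle mouse 1 (0.33, adjusted p = 0.0569) or LPS-vehicle mouse 1 (0.29, adjusted p = 0.0542). In the annotation 311 of the 4508 exon bases of *Adam17* overlap exons of *Gm22766* or *Iah1* on the other strand.

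*Adam19*, a sheddase of neuregulin, was lowest with CPD-4645. Sham-vehicle mice had 21.5, 16.2, 20.4 and 20.8 CPM of *Adam19*. LPS-vehicle mice followed with 19.0, 14.8, 12.6, 16.0 and 13.7 CPM. LPS-CPD-4645 mice had 8.85, 7.41, 7.18 and 6.59 CPM. The treated mice were below all others, and the sham and LPS-vehicle groups overlapped. The log2 difference was -1.03 against LPS-vehicle (SE 0.15, adjusted p = 7.42e-05) and -1.40 against sham-vehicle (SE 0.15, adjusted p = 1.96e-06), while LPS alone gave -0.37 (SE 0.14, adjusted p = 0.0708). The value after LPS did pass with limma-voom (-0.36, adjusted p = 0.0419) and without sham-vehicle mouse 2 (-0.45) or LPS-vehicle mouse 1 (-0.46). In the annotation 718 of the 6383 exon bases of *Adam19* overlap exons of *Gm16033*, *Gm16034* or *Mir8100*.

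*Adam12*, a related ADAM known from muscle and mesenchymal cells, had 3.28, 2.65, 2.75 and 3.26 CPM in sham-vehicle mice. LPS-vehicle mice had 3.81, 2.28, 1.76, 2.03 and 1.88 CPM of *Adam12*. LPS-CPD-4645 mice had 1.11, 0.629, 2.26 and 1.22 CPM of it. The treated mice were below the sham mice and overlapped LPS-vehicle mice. It was lower with LPS and CPD-4645 than in sham-vehicle mice (-1.19, SE 0.35, adjusted p = 0.0131). The difference from LPS-vehicle was not called (-0.86, SE 0.34, adjusted p = 0.0647), although it passed with limma-voom (adjusted p = 0.04996), with DESeq2 (adjusted p = 0.0495) and without LPS-CPD-4645 mouse 3 (-1.28, adjusted p = 0.0107).

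Further ADAMs passed the test with smaller changes. *Adam10*, the sheddase of amyloid precursor protein and Notch, had 74.6 to 93.5 CPM with LPS and vehicle, and 54.1 to 70.5 CPM with LPS and CPD-4645, a log2 difference of -0.40 (SE 0.09, adjusted p = 0.00347), and was -0.44 against sham-vehicle (SE 0.10, adjusted p = 0.00152), with -0.04 after LPS alone (adjusted p = 0.795). *Adam15*, found in endothelial cells, rose by 0.77 after LPS (SE 0.09, adjusted p = 5.59e-06), was lower with CPD-4645 than with vehicle, at -0.32 (SE 0.09, adjusted p = 0.00967), and stayed 0.45 above sham-vehicle (SE 0.09, adjusted p = 0.000954). The middle value of *Adam15* lost its call without LPS-CPD-4645 mouse 4 (-0.26, adjusted p = 0.0505), and 736 of its 2975 exon bases overlap *4731419I09Rik* on the other strand. *Adam8*, a protease of leukocytes and activated microglia, had 1.91 to 3.54 CPM in sham-vehicle, 3.69 to 6.45 with LPS and vehicle, and 2.03 to 3.08 with LPS and CPD-4645. It rose by 0.81 after LPS (SE 0.24, adjusted p = 0.0226) and was lower with CPD-4645, at -0.98 (SE 0.24, adjusted p = 0.00551), with -0.17 against sham-vehicle (adjusted p = 0.621). The rise of *Adam8* ended without sham-vehicle mouse 3 (0.68) or 4 (0.82) or LPS-vehicle mouse 1 (0.67). *Adam9* passed in none, the nearest being its value after LPS (0.27, SE 0.10, adjusted p = 0.0553).

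*Adam8*, *Adamts4* and *Adamts9*, higher after LPS and lower with CPD-4645, were set beside markers of monocytes and macrophages. Of the 8 tested 7 rose after LPS, beside 11.1% of all genes, and 2, *Lyz2* (-2.35, SE 0.33, adjusted p = 7.63e-05) and *Adgre1* (-1.51, SE 0.32, adjusted p = 0.00171), were lower with CPD-4645 than with vehicle, where 16.4% of all genes tested were, and the other 6 were not called. The summed level of the 10 markers was 20.7 to 27.6 CPM in sham-vehicle, 60.9 to 119.5 with LPS and vehicle, and 30.7 to 45.9 with LPS and CPD-4645, and none was at 0 throughout. Of the 10 endothelial markers, beside 11.1% of all genes higher and 8.86% lower, 6 were higher after LPS and 2, *Tek* (-1.49, SE 0.31, adjusted p = 0.00191) and *Slco1a4* (-1.12, SE 0.34, adjusted p = 0.0254), were lower, while 5 were lower and 0 higher with CPD-4645 than with vehicle, with sums of 439 to 703, 557 to 1119 and 656 to 871 CPM. LPS-vehicle mouse 3, the library of lowest total count, had the lowest endothelial sum of its group and also its lowest *Adamts9*. Mouse 2 was highest in both, but the other mice did not keep that order. Mouse 1 had the next lowest sum, 935 CPM, with *Adamts9* at 58.3 CPM, and mouse 5 had 1094 and 48.1 CPM. Of the microglial markers 4 of 8 fell after LPS and 0 rose, and their sums were 230.3 to 311, 164 to 299.9 and 155 to 204 CPM. The part of these cells in the changes of the 3 proteases was not tested.

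**Figure D3:**
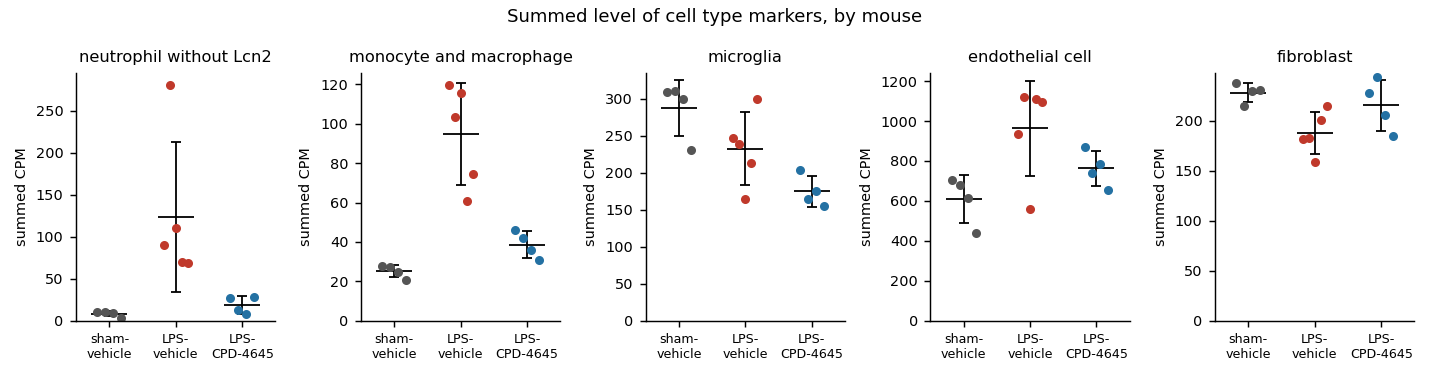
Summed level (y axis, CPM, from 0) of 5 lists of cell type markers in each of the 13 mice (points) with the group mean and SD, by group (x axis). The sums of the neutrophil markers other than Lcn2 and of the monocyte and macrophage markers are highest in LPS-vehicle mice, at 68.7 to 281 and 60.9 to 119.5 CPM, while those of the fibroblast markers overlap between the groups.

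*Timp1*, the inducible inhibitor of most secreted MMPs, changed most among the inhibitors. The gene is at chrX:20870166-20874735 on the forward strand, within the bounds of *Syn1* on the other strand, with no exon base shared. Sham-vehicle mice had 1.25, 0.844, 0.358 and 0.444 CPM of *Timp1*. In LPS-vehicle mice 1 to 5 it was 20.7, 18.2, 29.1, 9.28 and 14.7 CPM. In LPS-CPD-4645 mice 1 to 4 it was 17.2, 23.8, 12.2 and 11.7 CPM. Both LPS groups were above the sham group without overlap, and the treated mice lay within the LPS-vehicle range. The log2 fold change was 4.57 after LPS (SE 0.39, adjusted p = 1.76e-07), -0.16 with CPD-4645 against vehicle (SE 0.30, adjusted p = 0.712) and 4.41 against sham-vehicle (SE 0.39, adjusted p = 2.29e-07). The order of the mice was the same for *Timp1* as for *Mmp3* within each LPS group, with mouse 3 of LPS-vehicle and mouse 2 of LPS-CPD-4645 highest and mouse 4 of each group lowest.

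Fibroblast markers were set beside *Mmp3* and *Timp1*, which are known from fibroblasts. Of the 8 markers 1, *Dcn*, rose after LPS and 4 fell, beside 11.1% and 8.86% of all genes, and with CPD-4645 1, *Igf2*, was higher than with vehicle and 0 were lower, beside 14.1% and 16.4%. Their summed levels were 215 to 238 CPM in sham-vehicle, 159 to 215 with LPS and vehicle, and 185 to 244 with LPS and CPD-4645. None of these markers was at 0 throughout. Of the 8 astrocyte markers 4 rose after LPS and 0 fell, namely *Gfap* (2.40, SE 0.19, adjusted p = 6.66e-08), *Aldh1l1* (0.98, SE 0.11, adjusted p = 4.58e-06), *Sox9* (0.69, SE 0.12, adjusted p = 0.000578) and *Aldoc* (0.42, SE 0.11, adjusted p = 0.00954), and 1, *Sox9*, was lower with CPD-4645 than with vehicle (-0.57, adjusted p = 0.00234). The astrocyte sum was 1608 to 2061 CPM in sham-vehicle mice, 2163 to 2794 with LPS and vehicle, above the sham mice without overlap, and 1976 to 2558 with LPS and CPD-4645, and none of the markers was at 0 throughout. The part of fibroblasts in the rises of *Mmp3* and *Timp1*, and of astrocytes in those of *Timp1* and *Timp4*, was not tested.

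*Timp3*, which is bound to the matrix and also inhibits ADAM17 and ADAMTS enzymes, had 101, 84.9, 98.6 and 89.7 CPM in sham-vehicle mice. With LPS and vehicle *Timp3* had 155, 183, 114, 179 and 181 CPM. With LPS and CPD-4645 it had 202, 193, 161 and 158 CPM. All 9 LPS mice were above the 4 sham mice, and the LPS groups overlapped. *Timp3* rose by 0.80 after LPS (log2, SE 0.12, adjusted p = 0.000129) and was 0.93 above sham-vehicle with CPD-4645 (SE 0.13, adjusted p = 2.23e-05), with 0.13 between the LPS groups (SE 0.12, adjusted p = 0.43).

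*Timp4*, the TIMP with the most restricted expression, was higher after LPS and lower with CPD-4645 than with vehicle. It had 24.7, 23.4, 19.2 and 17.3 CPM in sham-vehicle mice. LPS-vehicle mice had 45.0, 54.0, 54.8, 44.1 and 68.9 CPM of *Timp4*. LPS-CPD-4645 mice had 36.4, 26.8, 37.4 and 23.7 CPM of it. LPS-vehicle values were above all others, and the treated mice overlapped the sham group at its upper end. The log2 fold changes were 1.33 after LPS (SE 0.16, adjusted p = 8.77e-06), -0.78 with CPD-4645 against vehicle (SE 0.16, adjusted p = 0.00125) and 0.55 against sham-vehicle (SE 0.17, adjusted p = 0.0141). The last call of *Timp4* ended without LPS-CPD-4645 mouse 3 (0.45, adjusted p = 0.0519) and without the pair of libraries of lowest total count (0.47, adjusted p = 0.0517). *Timp4* lies opposite *Syn2*, and 90 of its 5894 exon bases overlap exons of the other strand.

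*Timp2*, the widely expressed TIMP that takes part in MMP2 activation, did not pass the test in any comparison. Sham-vehicle mice had 479, 507, 541 and 554 CPM of *Timp2*. The LPS-vehicle mice had 467, 526, 498, 457 and 435 CPM of it. The LPS-CPD-4645 mice had 441, 473, 519 and 554 CPM of it. The groups overlapped, with log2 differences of -0.13 (SE 0.08), 0.06 (SE 0.08) and -0.07 (SE 0.09). *Reck* had 14.7, 11.4, 13.1 and 15.6 CPM in sham-vehicle mice. In LPS-vehicle mice *Reck* had 19.7, 14.6, 14.99, 20.6 and 15.4 CPM. With CPD-4645 it had 19.0, 18.6, 18.4 and 16.4 CPM. The treated mice were all above the sham mice, by 0.40 on the log2 scale (SE 0.14, adjusted p = 0.0348), whereas LPS alone gave 0.32 (SE 0.14, adjusted p = 0.108) and CPD-4645 against vehicle 0.08 (SE 0.14, adjusted p = 0.701). The *Reck* call ended without sham-vehicle mouse 2 (0.33) or 3 (0.39) or LPS-CPD-4645 mouse 1 (0.39), 2 (0.39) or 3 (0.40). It also ended with no filter on low counts (0.40, adjusted p = 0.0601) and without the pair of libraries of lowest total count (0.38, adjusted p = 0.0674).

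**Figure D4:**
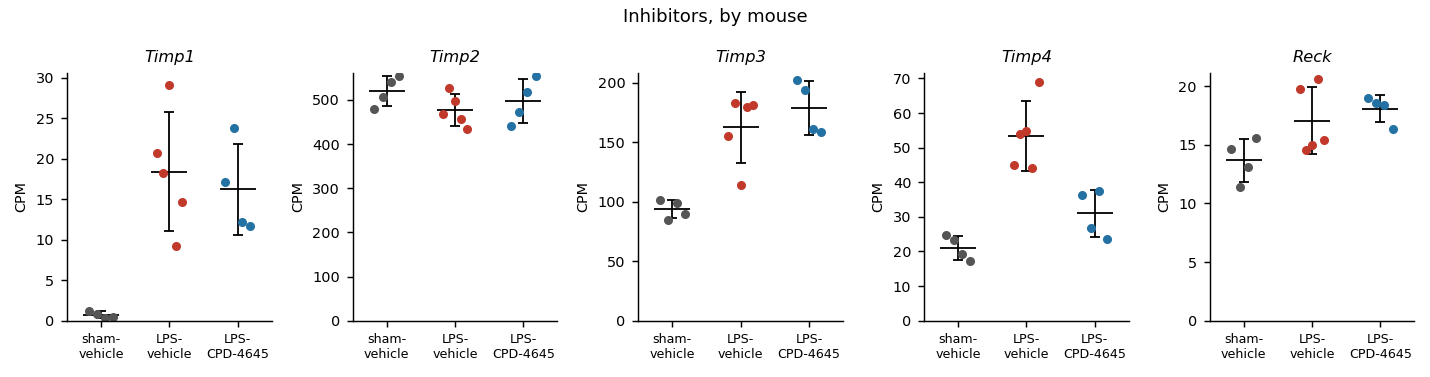
Level (y axis, CPM, from 0) of the 5 inhibitors in each of the 13 mice (points) with the group mean and SD, by group (x axis). Timp1 and Timp3 are above the sham-vehicle mice in both LPS groups, Timp4 is highest in LPS-vehicle mice, at 44.1 to 68.9 CPM, and Timp2 overlaps between all groups.

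Levels of different genes were compared as CPM per kilobase of merged exon. *Timp2* was the most abundant member in every group, at 140.3 ± 9.09 in sham-vehicle, 129 ± 9.61 with LPS and vehicle, and 134 ± 13.5 with LPS and CPD-4645 (SD, n = 4, 5 and 4). *Adam15* came second in every group, at 32.02 ± 3.49, 54.5 ± 4.30 and 43.6 ± 3.29. *Mmp17*, *Timp3* and *Adam10* ranked 3, 4 and 5 in sham-vehicle mice, at 22.2 ± 1.22, 19.8 ± 1.61 and 19.5 ± 1.14, with *Timp3* and *Adam10* closer together than their SDs. *Timp1* went from rank 25 in sham-vehicle, 0.817 ± 0.463, to rank 4 in LPS-vehicle mice, 20.7 ± 8.29, next to *Adamts1* at rank 5, 20.02 ± 5.61, from which it could not be separated by these SDs. *Mmp3* went from rank 37 to 12, 0.159 ± 0.204 to 6.64 ± 4.89, and *Mmp8* from rank 42 to 22, 0.0452 ± 0.0799 to 1.87 ± 1.04. In LPS-CPD-4645 mice *Mmp3* ranked 10, *Timp1* 5 and *Mmp8* 38.

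Proteases were set against inhibitors by their summed level per length, as a description of transcripts and not of activity. The 38 proteases summed to 137, 133, 135 and 129 CPM per kb in sham-vehicle mice 1 to 4. In LPS-vehicle mice 1 to 5 they summed to 207, 216, 187, 180.3 and 179, and in LPS-CPD-4645 mice 1 to 4 to 161, 172, 146 and 140.1. All 5 LPS-vehicle sums were above the 4 LPS-CPD-4645 sums, which were above the 4 sham sums. *Timp1* to *Timp4* summed to 156 to 172 in sham-vehicle, 179 to 210.2 with LPS and vehicle, and 187 to 200.1 CPM per kb with LPS and CPD-4645. The TIMP sum divided by the protease sum was 1.14 to 1.33 in sham-vehicle, 0.918 to 1.07 with LPS and vehicle, and 1.16 to 1.43 with LPS and CPD-4645, so that the LPS-vehicle group lay below both others without overlap. Within the TIMP sum the share of *Timp2* was 82.7 to 86.9% in sham-vehicle, 63.8 to 68.8% with LPS and vehicle, and 63.5 to 74.7% with LPS and CPD-4645. The share of *Timp1* went from 0.237 to 0.904% in sham-vehicle to 5.84 to 16.4% and 6.56 to 13.4% in the LPS groups.

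By class, the ADAMTS sum was 18.8 to 21.2 CPM per kb in sham-vehicle, 38.9 to 64.9 with LPS and vehicle, and 35.1 to 45.4 with LPS and CPD-4645. The ADAM sum was 67.5 to 73.3, 91.5 to 101 and 70.0 to 79.8, with the treated mice overlapping the sham mice and below all LPS-vehicle mice. Secreted MMPs summed to 4.09 to 5.38, 7.90 to 19.2 and 6.78 to 17.5, and membrane-type MMPs to 37.5 to 40.5, 25.9 to 37.3 and 28.2 to 31.8.

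**Figure D5:**
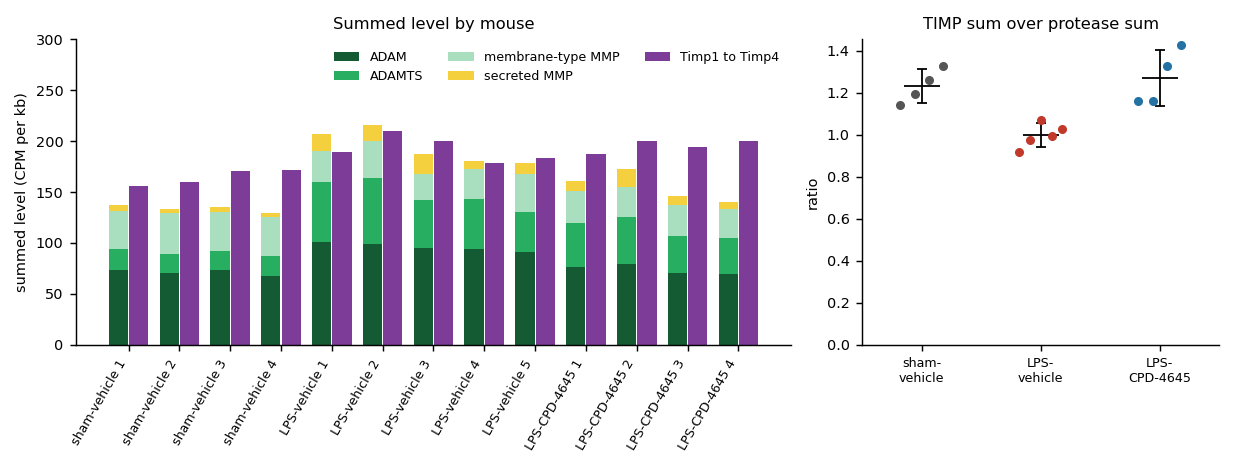
Left, summed level (y axis, CPM per kb, from 0) of the 38 proteases by class (stacked bars) and of Timp1 to Timp4 (purple bars) in each of the 13 mice (x axis), and right, the ratio of the TIMP sum to the protease sum with the group mean and SD. The ratio is 0.918 to 1.07 in LPS-vehicle mice and 1.14 or higher in all mice of the other groups.

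Genes that act with these enzymes were read from lists of activators and partners, substrates and shed proteins. Of 25 tested activators, partners and other regulators, 10 rose and 5 fell after LPS, and 4 were lower and 0 higher with CPD-4645 than with vehicle. Of all genes tested 11.1% rose and 8.86% fell after LPS, and 16.4% were lower and 14.1% higher with CPD-4645, so that the 4 of 25 lower were near the share of all genes. Among those that rose by over 2-fold were *Lcn2* (4.87, SE 0.49), *Plaur*, the urokinase receptor (3.95, SE 0.29), *A2m*, a broad protease inhibitor (2.76, SE 0.32), and *Rhbdf2*, a partner that matures ADAM17 (2.30, SE 0.24), all with adjusted p of 7.24e-06 or less. With CPD-4645, *A2m* (-1.27, SE 0.30, adjusted p = 0.00396) and *Thbs1* (-1.14, SE 0.38, adjusted p = 0.028) were lower, as was *Tspan14*, which brings ADAM10 to the surface (-0.69, SE 0.09, adjusted p = 5.42e-05). *Plaur* was not called between the LPS groups (-0.30, SE 0.24, adjusted p = 0.363). Against sham-vehicle, where 19.5% of all genes were higher and 19.3% lower, LPS-CPD-4645 mice had 9 of the 25 higher and 6 lower, the latter near the share of all genes, with *Plau*, urokinase, lower by over 2-fold (-1.26, SE 0.27, adjusted p = 0.00126).

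Of the 25 matrix and junction genes, 7 rose and 4 fell after LPS, where 11.1% and 8.86% of all genes did. The basement membrane collagens *Col4a1* (1.64, SE 0.13, adjusted p = 6.66e-08) and *Col4a2* (1.25, SE 0.15, adjusted p = 7.14e-06) and the junction cadherin *Cdh5* (1.14, SE 0.16, adjusted p = 5.85e-05) rose by over 2-fold, and the fibrillar collagen *Col3a1* fell (-1.07, SE 0.23, adjusted p = 0.00273). With CPD-4645, against 16.4% of all genes lower and 14.1% higher, 5 were lower than with vehicle and 1, *Lama5*, a laminin chain, was higher (0.50, SE 0.13, adjusted p = 0.00833), the change over 2-fold being that of *Hspg2*, perlecan (-1.34, SE 0.20, adjusted p = 0.000127). Against sham-vehicle 6 were higher and 4 lower, both near the 19.5% and 19.3% of all genes, with *Col4a1* (1.49, SE 0.13), *Lama5* (1.22, SE 0.14) and *Nid1* (1.13, SE 0.20) highest and *Col3a1* (-1.38, SE 0.25) and *Col1a1* (-1.28, SE 0.33) lowest.

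Of 17 tested membrane proteins that ADAM10 or ADAM17 sheds, 10 rose and 2 fell after LPS, and 7 were lower and 0 higher with CPD-4645 than with vehicle. Over all genes tested the shares were 11.1% and 8.86% after LPS and 16.4% and 14.1% with CPD-4645. *Icam1* (4.18, SE 0.41), *Cxcl16* (3.61, SE 0.23), *Tnf* (3.51, SE 0.50), *Tnfrsf1a* (2.15, SE 0.16) and *Tnfrsf1b* (1.93, SE 0.32) rose most. With CPD-4645 *Tnf*, the substrate for which ADAM17 is named, was not called (0.92, SE 0.40, adjusted p = 0.0904). Against sham-vehicle 8 were higher and 4 lower, beside 19.5% and 19.3% of all genes, with *Tnf* (4.43, SE 0.52) and *Icam1* (3.91, SE 0.41) highest.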

How the data were processed

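RNA-seq of brain vasculature from 13 mice was analysed. Per the labels and methods, the authors prepared stranded poly(A) libraries (single-end, NextSeq), aligned them with STAR 2.5.2a to mm10 and deposited raw counts per gene (GENCODE M9); bcl2fastq 2.15.0.4 is also in the submitters' processing notes. The strand setting of the counting is not given in the sources used here. Members were matched by Ensembl identifier with GENCODE M21, and the members, lists and rules were chosen with earlier results of these data known. Counts were fitted over all 13 mice with edgeR 4.0.16 (R 4.3.3; TMM, filterByExpr with a minimum count of 10 and total of 15, quasi-likelihood test), with Benjamini-Hochberg adjustment over 17285 genes. Fold changes are log2 with standard errors, and CPM uses TMM-scaled library totals, whose counting precision is set by 7813559 to 55133373 counts. Calls were made at an adjusted p of at most 0.05, and also at 2-fold. The study's test, limma-voom (limma 3.58.1), DESeq2 1.42.0, other filters and scalings, a replicate block, each mouse left out, and both shallow libraries left out were alternatives. Values in every mouse are given for members past 2-fold, the proteases the study names and all inhibitors, and *Adam17*, *Tspan14* and the comparisons of *Plaur* and *Tnf* between the LPS groups were chosen after their values were seen. The labels name no cultures or litters, and each library is taken as 1 mouse. The script was tested on simulated data. P-values set a difference between groups against the spread between mice of a group, estimated over all 13 mice with information shared across genes. Results for some listed genes are not reported here.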

Additional observations from a re-analysis of the deposited data

Results flagged for a closer look

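The 51 groups of values of 17 members given by mouse, *Adam17* not among them, were searched for a mouse far from the rest of its group, and 5 were found. A search of this kind marks about 1 group in 20 by chance. *Mmp8* in sham-vehicle mouse 1 was 0.399 CPM, against 0 to 0.0398 in the other 3. *Mmp15* in LPS-CPD-4645 mouse 2 was 9.16 CPM, against 12.01 to 12.5. *Adamts1* in sham-vehicle mouse 1 was 15.1 CPM, against 8.88 to 9.62. *Adamts9* in LPS-CPD-4645 mouse 1 was 28.9 CPM, against 21.2 to 22.5. *Adam12* in LPS-vehicle mouse 1 was 3.81 CPM, against 1.76 to 2.28.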

How the results depend on the processing

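Over 21 alternatives, 57 of 84 results for 28 members kept their direction and side of the threshold, and 1665 of 1761 values did. With a mouse left out, members higher after LPS numbered 13 to 18 in place of 17. Those lower with CPD-4645 than with vehicle numbered 9 to 13 in place of 12. At 2-fold or more these counts were 9 to 11 in place of 10, and 3 to 5 in place of 4. Members lower after LPS numbered 2, and 4 with limma-voom, and those also past 2-fold numbered 0, and 1 with limma-voom or DESeq2 and 0 to 1 with a mouse left out. Members higher with CPD-4645 than with vehicle numbered 2, and 1 to 2 with a mouse left out, 1 each without mouse 2 or 4 of LPS-CPD-4645 or mouse 4 of LPS-vehicle. The cause was not tested. Values that turned sign were all of results that had not been called. Between the LPS groups, *Mmp3* was 0.0744 with limma-voom, and without the pair of shallowest libraries *Mmp3* was 0.32, *Mmp17* -0.0759, *Adamts14* 0.0779, *Timp1* 0.0167 and *Timp3* -0.0312. With a mouse left out *Mmp3* was -0.96 to 0.24, *Mmp17* -0.0274 to 0.10, *Adamts1* -0.30 to 0.0213, *Adamts14* -0.40 to 0.0321 and *Timp1* -0.42 to 0.0431. After LPS *Adam10* was -0.0782 to 0.00906 and *Adamts2* -0.13 to 0.19, and *Adamts10* with CPD-4645 against sham-vehicle was -0.17 to 0.0262. Mice of different groups that carry the same number were not paired, as 1 of 12 correlations of their deviations was over 0.1 (-0.035 to 0.114). With the number as a replicate block, *Adamts2* after LPS was -0.13, *Mmp9* (-0.71, adjusted p = 0.0932) and *Mmp15* (-0.42, adjusted p = 0.123) lost their call between the LPS groups, and 10 members were lower there in place of 12. *Mmp25* and *Adamts12* were removed by the filter on low counts, and with no filter 13 members were lower with CPD-4645 than with vehicle in place of 12.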
